A study of Mus musculus with 7 samples.

Results

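The 31 genes described here are transcripts that cells make in response to type I interferon: Ifit1, Ifit2, Ifit3, Ifit3b, Isg15, Isg20, Rsad2, Mx1, Mx2, Oasl1, Oasl2, Oas1a, Oas2, Oas3, Usp18, Bst2, Stat2, Irf7, Irf9, Zbp1, Xaf1, Rtp4, Ifi44, Ifi204, Ifi211, Ifih1, Dhx58, Cmpk2, Parp14, Trim30a and Slfn5. They were chosen as a fixed list of symbols, and all 31 were found among the 55357 features of the count matrices. Their levels were read in mouse liver with droplet-based 3′ RNA sequencing of single cells. The livers were taken 2 weeks after a hydrodynamic injection through the tail vein, in which a large volume pushed in rapidly carries plasmid DNA into hepatocytes. All 7 samples had been given Nras and C-myc plasmids, a pair of oncogenes that transforms hepatocytes. The 3 controls had these oncogenes alone. In the 4 treated samples the injection also held an IL-2/CD25 plasmid, in which interleukin 2, a growth factor of lymphocytes, is linked with CD25, a chain of its receptor. All samples were called HCC tissue (hepatocellular carcinoma), and strain, sex, age and any enrichment of immune cells are not given in the labels used here. Nothing in those labels says that each sample is a separate animal, so the p-values measure only the spread between samples, which may be partly technical.

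Type I interferons are secreted when nucleic acid sensors are triggered, and they act on nearly every cell through the receptor Ifnar1/Ifnar2. The receptor's kinases activate a complex that holds Stat2 and Irf9 and binds the interferon-stimulated response element in the promoters of target genes. The targets include inhibitors of translation and viral assembly, sensors that amplify the signal, and brakes such as Usp18 that end it, and interferon gamma, which has a receptor of its own, induces many of them too.

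Promoter sequence was looked up in RefSeq (GRCm38.p6) to show what the members share apart from the choice of symbols. It was found for 22 of the 31 members. The core letters of the response element were searched as GAAA, any 2 bases and GAAA again, or TTTC, any 2 bases and TTTC where the match is on the other strand, and overlapping matches were counted. They stood within 250 bases before the start in 12 of these 22 (54.5%), and in 936 of 27025 genes of the table (3.46%). The 6 windows of 100 bases printed here were picked among members with a match, with the matching letters in capitals and the sequence 5′ to 3′ on the gene's strand. Cmpk2, Ifi44, Ifih1, Ifit2, Irf7, Irf9, Isg20, Oasl1, Oasl2 and Xaf1, which the results also name, held no match in these 250 bases. Isg15, Ifit1, Rsad2 and Ifit3 were called lower in NK or T cell classes, and Trim30a and Slfn5 higher in monocytes and macrophages. These are not separate sets. Ifit1, Rsad2 and Ifit3 were also called higher in monocytes and macrophages. Trim30a was called higher in NK cells and ILC1 and in CD8 T cells too, and Slfn5 lower in NK cells and ILC1. A match shows only that these letters are present.
Isg15 (chr4:156200830-156200929, minus strand): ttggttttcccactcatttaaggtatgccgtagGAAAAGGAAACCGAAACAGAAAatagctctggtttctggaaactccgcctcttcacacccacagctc
Ifit1 (chr19:34640759-34640858, plus strand): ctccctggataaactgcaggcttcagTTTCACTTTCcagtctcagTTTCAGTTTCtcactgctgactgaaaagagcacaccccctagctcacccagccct
Rsad2 (chr12:26456518-26456617, minus strand): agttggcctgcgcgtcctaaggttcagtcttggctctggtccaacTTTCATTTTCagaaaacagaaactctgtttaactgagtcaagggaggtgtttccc
Ifit3 (chr19:34583362-34583461, plus strand): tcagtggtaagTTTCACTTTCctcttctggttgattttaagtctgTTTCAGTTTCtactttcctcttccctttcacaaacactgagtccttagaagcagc
Trim30a (chr7:104465194-104465293, minus strand): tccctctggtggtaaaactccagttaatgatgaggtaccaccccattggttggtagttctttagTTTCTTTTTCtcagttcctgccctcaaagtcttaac
Slfn5 (chr11:82951902-82952001, plus strand): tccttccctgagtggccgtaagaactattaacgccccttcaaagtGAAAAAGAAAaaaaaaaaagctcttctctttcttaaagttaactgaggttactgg
The windows of Isg15, Ifit1 and Ifit3 held more than 1 match, with 3, 2 and 2 respectively. Those of Rsad2, Trim30a and Slfn5 held 1 each.

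The controls held 7390 to 9603 barcodes and 76438139 to 181755269 unique molecular identifiers (UMIs, counts of single captured transcripts), and the treated samples 7263 to 10637 barcodes and 37653600 to 47881379 UMIs. After filters 62304 cells remained, of which 51588 fell into 11 classes gated by marker genes. Cells that fitted no gate were 18.9% of each control and 12.7 to 14.95% of the treated samples. A second lineage scored above the gate's limit in 17.15 to 17.6% of the cells of a control, against 3.7 to 7.8% in the treated samples. Control cells were also deeper, with medians of 6253.5 to 8724 UMIs against 3215 to 4477.5 in the treated samples. Whether barcodes of mixed lineage, depth or RNA carried over between cells raised this score in the controls was not tested. The groups held very different numbers of some classes, such as 447 control and 12613 treated natural killer (NK) cells and ILC1, and 6850 control and 506 treated monocytes and macrophages. A class's own marker list was the highest in every class but the other T cells, which held 34.5 UMIs of the T cell list and 42.1 of the NK list per 10000. The margin was wide in NK cells and ILC1 (164 UMIs of their markers and 1.64 of the T cell markers). It was narrower in cDC1 (24.7 of their own and 14.4 of the monocyte and macrophage list). The same markers set the gates, so these values are no independent check. Control sample 2 stood apart: members took 10.7 of every 10000 UMIs over its whole library, against 6.30 and 4.22 in the other controls, and it was the highest control in 10 of the 11 classes. Levels are given as UMIs per 1000000 UMIs of the class (CPM), and changes as log2 of treated over control fitted by edgeR with its scaling by trimmed means, with an approximate standard error (SE). A gene was called at an adjusted p under 0.05.

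The summed share of the members moved in opposite directions in NK and T cells and in monocytes and macrophages. In NK cells and ILC1 the members took 6.65, 12.2 and 8.05 of every 10000 UMIs in the controls, as a mean over cells, and 6.31, 6.39, 6.51 and 6.42 in the treated samples. All treated samples lay below the lowest control, although the gap to that control was small. The difference of the means was -2.57, and -0.94 without control sample 2. In CD8 T cells the share was 10.9 ± 1.94 (SD, n = 3) in the controls and 6.43 ± 0.724 (n = 4) in the treated samples. It was 14.5 ± 3.27 and 9.11 ± 0.460 in CD4 T cells, and 12.1 ± 0.885 and 8.86 ± 0.159 in the other T cells, and in all 3 T cell classes the treated samples lay below every control. In monocytes and macrophages the share was 7.33, 12.7 and 6.82 in the controls and 15.7, 21.8, 23.1 and 17.4 in the treated samples, all of them above the highest control. The share was higher in the treated mean in cells with at least 3 UMIs of the complement genes C1qa, C1qb and C1qc, which macrophages express (9.84 ± 2.50 and 17.4 ± 4.60, with 1 treated sample just below control sample 2), and in cells with none (8.62 ± 3.75 and 19.98 ± 3.85, without overlap).

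Neutrophils (19.7 ± 4.09 and 24.2 ± 2.45), B cells (5.42 ± 0.811 and 4.95 ± 0.178), cDC1 (11.8 ± 2.00 and 12.4 ± 2.28) and cDC2 (8.90 ± 1.38 and 10.5 ± 0.814) overlapped between groups. The cDC1 and cDC2 are the conventional dendritic cells that prime CD8 and CD4 T cells. Plasmacytoid dendritic cells, the cells best known for secreting type I interferon, held the highest share of any class, 34.5 ± 3.65 in the controls and 37.8 ± 1.03 in the treated samples. Most of it was Bst2, which is also a surface marker of these cells. Without Bst2 the share was 16.2 ± 5.81 in the controls, with control sample 2 at 22.9, and 11.3 ± 0.839 in the treated samples. Hepatocytes and tumour cells held the lowest share of any class in the controls, 3.07 ± 0.333, and 6.49 ± 2.12 in the treated samples.

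**Figure D1:**
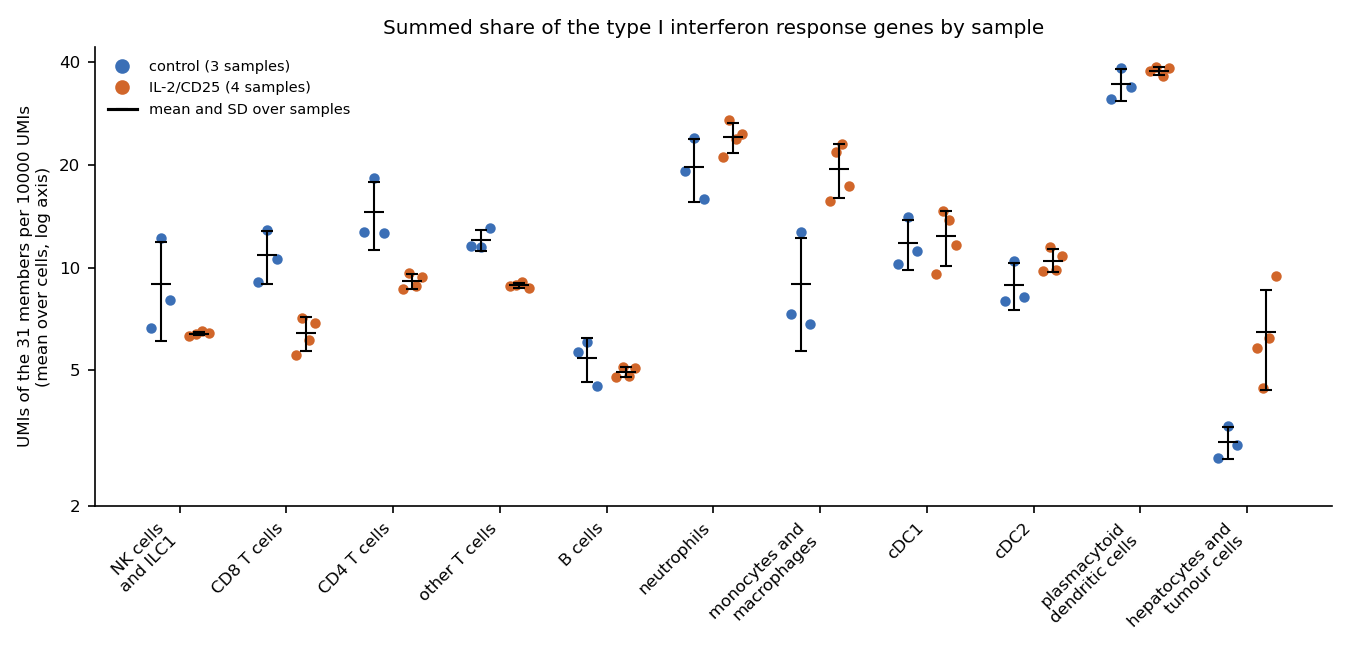
UMIs of the 31 members per 10000 UMIs of a cell, averaged over the cells of each class (log axis), with 1 point per sample, 3 controls and 4 samples with the IL-2/CD25 plasmid, and bars for mean and SD. Treated samples lie below the controls in NK cells and ILC1 and in the 3 T cell classes, and above them in monocytes and macrophages as well as hepatocytes and tumour cells.

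Singly, of the 31 members, 19 were called higher in at least 1 class and lower in at least 1 other, 3 were called higher only (Irf9, Cmpk2 and Trim30a), 7 lower only, and 2, Ifit3b and Mx2, in no class. Of 13327 genes that were tested in at least 2 classes, 17.8% were called higher in 1 and lower in another, 36.1% higher only, 30.9% lower only and 15.1% in no class. Ifit3b and Mx2 each passed the low-count filter in 2 classes. Some members have near-identical neighbours in the genome (Ifit3 and Ifit3b, Oas1a and its paralogs, Ifi204 and Ifi211, and the Trim30 genes), and how reads were divided among them is uncertain.

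**Figure D2:**
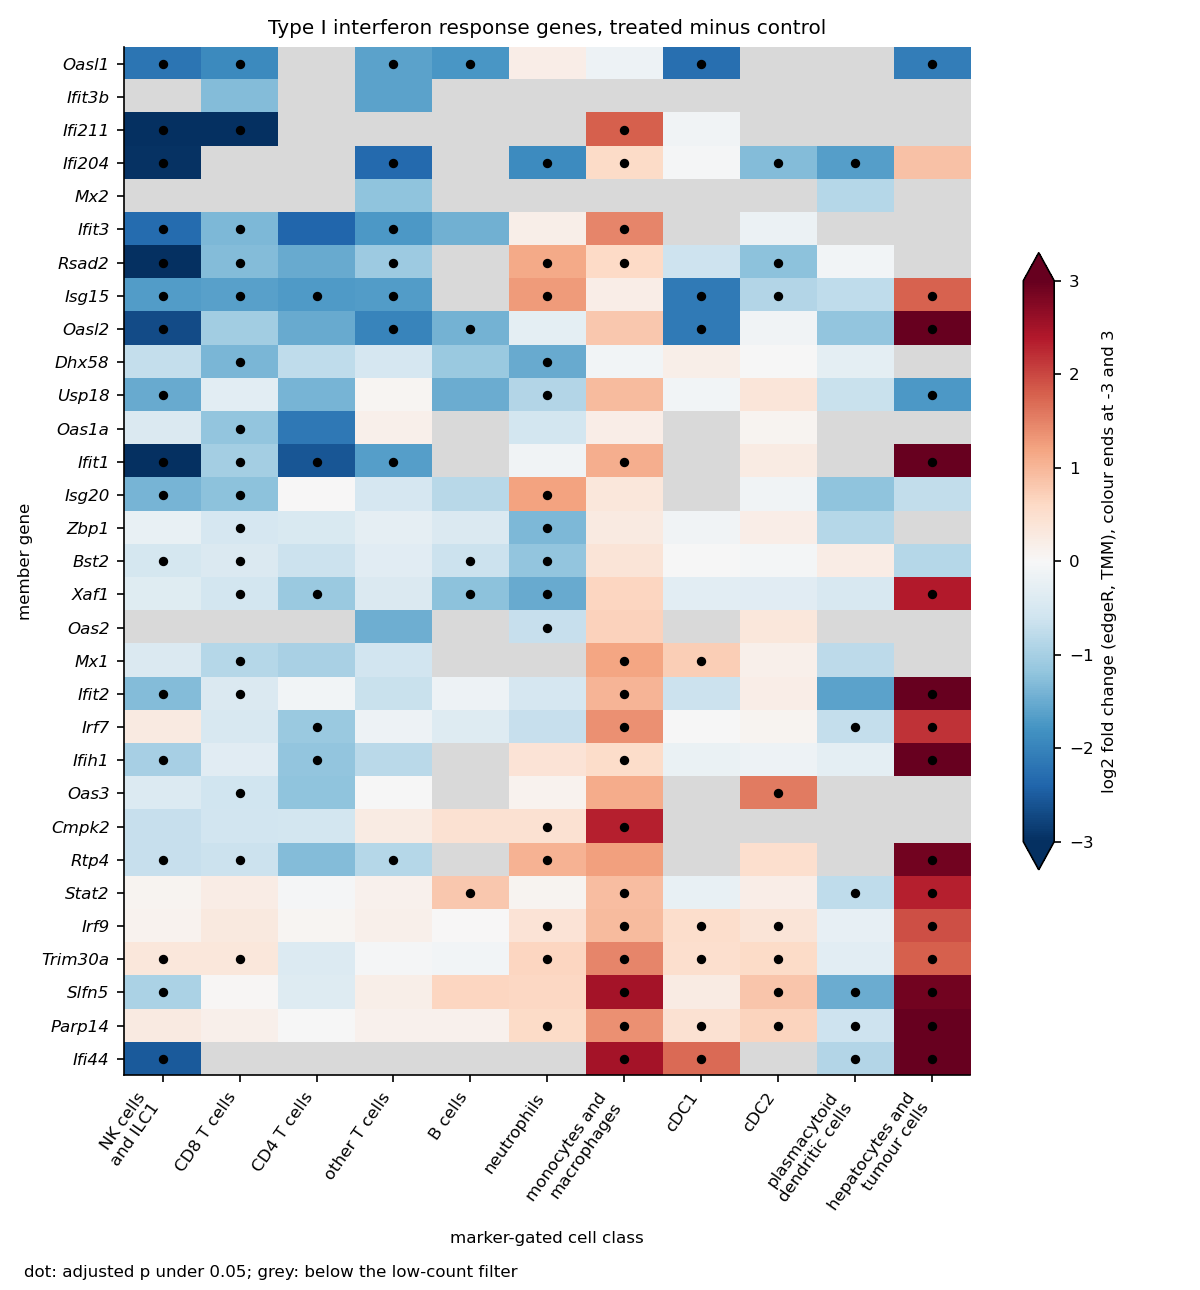
Fitted log2 change, treated over control, of each member (rows) in each class (columns), with a dot where edgeR's adjusted p was under 0.05 and grey where the gene stayed below the low-count filter. Called changes in the T and NK cell columns are blue (lower in treated samples) except for Trim30a, and called changes in monocytes and macrophages are all red.

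In NK cells and ILC1, innate lymphocytes that kill and secrete interferon gamma, several antiviral effectors fell. Ifit1, which binds foreign RNA caps, was at 68.7, 96.1 and 48.3 CPM in the controls and at 8.17, 8.51, 10.1 and 10.5 CPM in the treated samples. It fell by 3.10 ± 0.204 on the log2 scale (SE, edgeR adjusted p = 2.38e-07). Rsad2, or viperin, which makes a chain-terminating nucleotide, was at 35.2, 62.6 and 20.7 CPM in the controls and between 5.04 and 6.98 CPM in the treated samples, and fell by 3.03 ± 0.288 (adjusted p = 4.12e-06). Isg15, a ubiquitin-like protein that is joined to other proteins, was at 74.0, 96.7 and 78.2 CPM in the controls and at 31.04, 26.5, 32.5 and 23.0 CPM in the treated samples, and fell by 1.68 ± 0.165 (adjusted p = 5.20e-06). The groups did not overlap for any of the 3 genes. Ifit2, a relative of Ifit1, was at 47.5 ± 20.1 and 22.5 ± 0.861 CPM and fell by 1.31 ± 0.211 (adjusted p = 0.000296).

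The most abundant members of NK cells and ILC1 did not follow these effectors. Trim30a, a ubiquitin ligase that restrains Toll-like receptor signalling, was at 84.5, 110 and 80.5 CPM in the controls and between 123 and 131 CPM in the treated samples (0.34 ± 0.123, adjusted p = 0.0414). Parp14, an ADP-ribosyltransferase, was at 85.1 ± 3.96 and 109 ± 5.72 CPM (0.27 ± 0.114, adjusted p = 0.0736). In all, 28 members passed the filter (not Ifit3b, Mx2 and Oas2), of which 16 were called lower (57.1%) and 1 higher (3.6%). Among the 13337 genes tested, 19.7% were called lower and 20% higher. The median change of the members was -0.83, and that of all genes was 0.05.

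With control sample 2 left out, 7 members were called lower and 2 higher in NK cells and ILC1, and Ifit2 (-0.69) was no longer called. Trim30a lost its call when any single library other than control sample 2 was left out (0.27 to 0.34). Markers of neutrophils, 7 of 10 of them, were also lower in the treated NK cells and ILC1 (11.8 to 17.0 UMIs of the list per 10000 in the controls, 3.98 to 4.96 in the treated samples), and free RNA was estimated at 15.2 to 30.5% of UMIs in the controls, against 14.1 to 21.3% in the treated samples. The part of these in the fall was not tested beyond a subtraction of free RNA, which left 13 members lower and 0 higher. Here and below, the profile of free RNA was the sum of all deposited barcodes of a sample, most of them cells, and not of empty droplets. The shares of free RNA are therefore rough estimates, and the subtraction also takes out transcripts of the cells themselves.

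In CD8 T cells, the cytotoxic T lymphocytes, Isg15 was at 66.8, 99.0 and 82.2 CPM in the controls and at 22.2, 28.2, 27.4 and 31.02 CPM in the treated samples. It fell by 1.62 ± 0.151 (adjusted p = 9.71e-07). Ifit3, a partner of Ifit1, was at 17.4, 31.3 and 14.8 CPM in the controls and at 4.85 to 10.3 CPM in the treated samples, and fell by 1.36 ± 0.305 (adjusted p = 0.0018). Rsad2 (20.9 ± 16.6 and 7.24 ± 2.84 CPM) and Ifit1 (36.4 ± 24.2 and 15.9 ± 5.18 CPM) fell by 1.30 and 1.02, with adjusted p of 0.0195 and 0.0204. Control sample 2 was the highest for both, at 39.95 CPM for Rsad2 and 64.3 CPM for Ifit1.

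The abundant members of CD8 T cells again went different ways. Bst2, or tetherin, which holds budding virus at the cell surface, was at 78.0 ± 9.40 and 62.6 ± 4.56 CPM and fell by 0.43 ± 0.116 (adjusted p = 0.00601). Trim30a was at 86.7 ± 12.2 and 113 ± 8.36 CPM and rose by 0.34 ± 0.117 (adjusted p = 0.0252), and Parp14 was at 75.5 ± 4.09 and 88.4 ± 5.21 CPM (adjusted p = 0.225). Of 27 members past the filter (not Ifi204, Ifi44, Mx2 and Oas2), 16 were called lower (59.3%) and 1 higher (3.7%), where 28.0% and 27.0% of the 11481 genes tested were called in those directions. The members' median change was -0.59 and that of all genes 0.05. Without control sample 2, Rsad2 (-0.74) and Ifit1 (-0.59) were no longer called. Without control sample 1, 11 members were lower and 0 higher, and both Bst2 (-0.31) and Trim30a (0.21) lost their calls. Trim30a also lost it without treated sample 2 (0.27) and with the replicate number as a block (0.32). With free RNA subtracted, both Trim30a (0.04) and Bst2 (-0.47) lost their calls. Free RNA came to 8.70 to 40.3% of the UMIs of control CD8 T cells, against 10.4 to 14.2% in the treated samples.

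CD4 T cells, which include helper and regulatory T cells, held fewer cells in the controls (30 to 58 per sample). Isg15 was at 192, 165 and 164 CPM in the controls and at 61.6, 54.4, 69.1 and 43.8 CPM in the treated samples, and fell by 1.69 ± 0.208 (adjusted p = 0.000131). Ifit1 was at 46.4, 165 and 49.1 CPM in the controls and at 9.50 to 17.9 CPM in the treated samples, and fell by 2.56 ± 0.410 (adjusted p = 0.00103). Ifih1, the RNA sensor MDA5, was at 49.1 ± 17.9 and 23.0 ± 3.58 CPM and fell by 1.19 (adjusted p = 0.023). Xaf1, which opposes an inhibitor of apoptosis, was at 63.9 ± 15.2 and 31.4 ± 3.30 CPM and fell by 1.11 (adjusted p = 0.0131). Trim30a, at 151 ± 5.07 and 119 ± 11.5 CPM, did not pass the test (adjusted p = 0.164) although its groups did not overlap, and Parp14 was at 133 ± 35.3 and 133 ± 17.5 CPM.

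Of 24 members past the filter in CD4 T cells, 5 were called lower (20.8%) and 0 higher, and 13 had an unadjusted p under 0.05, against 5.78% lower and 4.5% higher among 10008 genes. DESeq2 called 7 lower and 0 higher. The members' median change was -1.04 and that of all genes 0.04. The share of these cells with a UMI of Foxp3, the factor that defines regulatory T cells, was 3.45 to 33.3% in the controls, against 21.5 to 52.0% in the treated samples. In cells without Foxp3 the members' share was 15.5 ± 4.09 and 8.83 ± 0.518 per 10000 UMIs, and 7 members were called lower. Without control sample 1, 2 members were called lower, and Ifih1 and Xaf1 lost their calls without control sample 1 or 2.

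The other T cells, with T cell markers but no assignment to CD4 or CD8, held 264 control and 5978 treated cells. Isg15 was at 162, 139 and 284 CPM in the controls and at 73.6, 66.9, 70.7 and 47.3 CPM in the treated samples, and fell by 1.68 ± 0.223 (adjusted p = 0.000195). Ifit1 was at 49.6, 103 and 64.7 CPM in the controls and at 22.5 to 26.2 CPM in the treated samples, and fell by 1.66 ± 0.227 (adjusted p = 0.000235). Ifit3 (26.4 ± 16.3 and 8.51 ± 1.46 CPM) and Rsad2 (21.5 ± 5.47 and 10.5 ± 1.55 CPM) fell by 1.71 and 1.10, with adjusted p of 0.00585 and 0.0232. Trim30a, at 124 ± 20.4 and 128 ± 3.43 CPM, and Parp14, at 104 ± 15.2 and 121 ± 1.57 CPM, did not pass the test.

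Of 29 members past the filter in the other T cells, 8 were called lower (27.6%) and 0 higher, and 11 had an unadjusted p under 0.05; 10.0% and 9.01% of 12428 genes were called lower and higher. DESeq2 called 9 lower and 0 higher. The medians were -0.51 for the members and 0.06 for all genes. Without control sample 2, 4 members were lower, and without control sample 3, 5 were; Rsad2 was lost in both cases and Ifit3 (-1.08) without control sample 3. Markers of NK cells, 8 of 8, were higher in the treated cells of this class (16.9 to 20.1 UMIs of the list per 10000 in the controls, 31.7 to 54.6 in the treated samples) and 8 of 10 neutrophil markers were lower (12.8 to 18.7 and 3.69 to 5.15), and their part in these changes was not tested.

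B cells showed few changes and low levels. Oasl1, which limits translation of Irf7, was at 23.9, 24.6 and 14.5 CPM in the controls and at 5.99 to 7.56 CPM in the treated samples, and fell by 1.75 ± 0.375 (adjusted p = 0.00155). Xaf1 was at 21.5, 41.1 and 23.5 CPM in the controls and at 11.1 to 13.4 CPM in the treated samples, and fell by 1.23 ± 0.313 (adjusted p = 0.00636). Bst2 (54.4 ± 12.5 and 39.1 ± 3.47 CPM) fell by 0.64 (adjusted p = 0.0324). Stat2, the transcription factor particular to type I and III interferon signalling, was at 38.3, 37.0 and 19.9 CPM in the controls and at 49.5, 64.3, 58.0 and 50.9 CPM in the treated samples, and rose by 0.82 ± 0.238 (adjusted p = 0.016). The most abundant members, Trim30a (91.6 ± 18.8 and 93.3 ± 2.57 CPM), Parp14 (71.3 ± 7.03 and 83.0 ± 4.77 CPM) and Irf9 (57.8 ± 20.03 and 57.2 ± 7.27 CPM), did not pass the test.

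The filter left 17 of the 31 members in B cells, of which 4 were called lower (23.5%) and 1 higher (5.9%), beside 12.6% and 8.7% of 9611 genes, and with scaling by library size alone 3 lower and 2 higher. The medians were -0.44 for the members and 0.00 for all genes. Leaving out control sample 2, treated sample 2 or treated sample 3 left 2 lower and 1 higher, leaving out control sample 3 left 3 lower and 0 higher, and Stat2 lost its call without control sample 3 (0.53) and Bst2 without control sample 2 (-0.61), control sample 3 (-0.36), treated sample 2 (-0.63) or treated sample 3 (-0.59). All 10 neutrophil markers were lower in the treated B cells (11.2 to 18.6 and 1.88 to 2.26 UMIs of the list per 10000), and with free RNA subtracted 2 members were lower and 0 higher.

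Neutrophils divided the members. Isg15 was at 83.1, 175 and 79.4 CPM in the controls and at 338, 364, 302 and 298 CPM in the treated samples, and rose by 1.28 ± 0.235 (adjusted p = 0.000525), the opposite of its direction in NK and T cells. Rsad2 was at 68.0, 99.9 and 59.6 CPM in the controls and at 131, 245, 169 and 242 CPM in the treated samples, and rose by 1.13 ± 0.227 (adjusted p = 0.00105). Isg20, an exonuclease that degrades RNA, rose from 27.2 ± 4.50 to 74.9 ± 22.5 CPM (1.22 ± 0.207, adjusted p = 0.000297). Rtp4, a chaperone that carries receptors to the membrane and is induced by interferon, rose from 54.7 ± 26.7 to 133 ± 31.5 CPM (1.04 ± 0.271, adjusted p = 0.00587), and Trim30a from 168 ± 20.8 to 313 ± 18.2 CPM (0.65 ± 0.112, adjusted p = 0.000327).

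Other members fell in neutrophils. Ifi204, a member of the family of cytosolic DNA sensors, was at 120.0, 230.0 and 88.5 CPM in the controls and at 32.0, 62.5, 43.0 and 50.3 CPM in the treated samples, and fell by 1.89 ± 0.303 (adjusted p = 0.000191). Zbp1, a sensor of Z-form nucleic acids that can start necroptosis, was at 61.4, 102 and 55.7 CPM in the controls and at 27.5 to 38.9 CPM in the treated samples, and fell by 1.35 ± 0.225 (adjusted p = 0.000254). Xaf1 (20.2 ± 13.3 and 8.44 ± 1.87 CPM) fell by 1.504 and Bst2 (41.1 ± 14.7 and 21.5 ± 6.42 CPM) by 1.18, with adjusted p of 0.0114 and 0.00245. Oasl2, the most abundant member, was at 331, 465 and 254 CPM in the controls and at 339, 378, 293 and 339 CPM in the treated samples, so that the groups overlapped (adjusted p = 0.153). It was called lower without control sample 3 (-0.49) and with free RNA subtracted (-0.71).

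Of 26 members past the filter in neutrophils (not Ifi211, Ifi44, Ifit3b, Mx1 and Mx2), 8 were called higher (30.8%) and 7 lower (26.9%), close to the 25.6% and 27.1% among 7427 genes. The medians were 0.10 and -0.01. Scaling by library size alone raised all changes by 0.25 at the median gene and gave 10 higher and 5 lower, without changing the sign of a called member. Neutrophil cells held a median of 1471 to 1745 UMIs in the controls, against 2248 to 2616 in the treated samples, and free RNA was estimated at 16.9 to 28.9% and 4.43 to 10.7% of their UMIs. With free RNA subtracted 3 were higher and 8 lower, and Trim30a (0.24) and Rtp4 (0.66) lost their calls. Leaving out control sample 1 or 3 left 5 higher, with 7 and 9 lower.

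In monocytes and macrophages, the phagocytes of the liver, every call was upward. Ifit1, Ifit2, Ifit3 and Rsad2, which were called lower in NK cells and ILC1 and in CD8 T cells, were called higher here. They are named for comparison between classes. Slfn5, a nuclear protein of the Schlafen family that is induced by interferon, was at 30.0, 77.2 and 26.2 CPM in the controls and at 197, 347, 357 and 224 CPM in the treated samples, and rose by 2.49 ± 0.370 (adjusted p = 0.000184). Trim30a was at 52.3, 75.9 and 53.3 CPM in the controls and at 179, 192, 192 and 170 CPM in the treated samples, and rose by 1.46 ± 0.145 (adjusted p = 1.10e-05). Ifi211, which belongs with Ifi204 to the family of DNA sensors, was at 14.9, 29.0 and 13.5 CPM in the controls and at 48.9, 89.4, 70.9 and 84.4 CPM in the treated samples, and rose by 1.80 ± 0.295 (adjusted p = 0.000373). Cmpk2, a mitochondrial nucleotide kinase that lies beside Rsad2 in the genome, was at 3.05 to 5.04 CPM in the controls and at 11.5, 36.6, 30.2 and 21.3 CPM in the treated samples, and rose by 2.34 ± 0.324 (adjusted p = 0.000112). The treated samples lay above all controls for each of these 4 genes.

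The most abundant member of monocytes and macrophages was Ifi204, at 136, 222 and 124 CPM in the controls and at 219, 305, 276 and 263 CPM in the treated samples. These groups overlapped, and the change of 0.58 ± 0.195 (adjusted p = 0.0263) lost its call without control sample 1 or 3 or treated sample 2, 3 or 4 (0.41 to 0.53). Isg15 was at 53.1 ± 21.0 and 68.2 ± 28.3 CPM with an adjusted p of 0.611; it is given for comparison and was picked after its values were seen.

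Of 29 members past the filter in monocytes and macrophages (not Ifit3b and Mx2), 16 were called higher (55.2%) and 0 lower, and 19 had an unadjusted p under 0.05. The background was 27.0% higher and 26.7% lower among 9575 genes. DESeq2 called 19 higher and 0 lower. The members' median change was 0.94 and that of all genes 0.01. With control sample 2 left out, whose share was the highest of the controls, 25 were higher and 0 lower. In cells with at least 3 C1q UMIs 10 were higher, and in cells with none 15. Markers of NK cells, 8 of 8, were higher in the treated cells of this class (0.148 to 0.222 and 1.73 to 3.54 UMIs of the list per 10000), 8 of 10 neutrophil markers were lower (16.5 to 26.6 and 3.70 to 7.09), and the part of these in the rise was not tested.

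**Figure D3:**
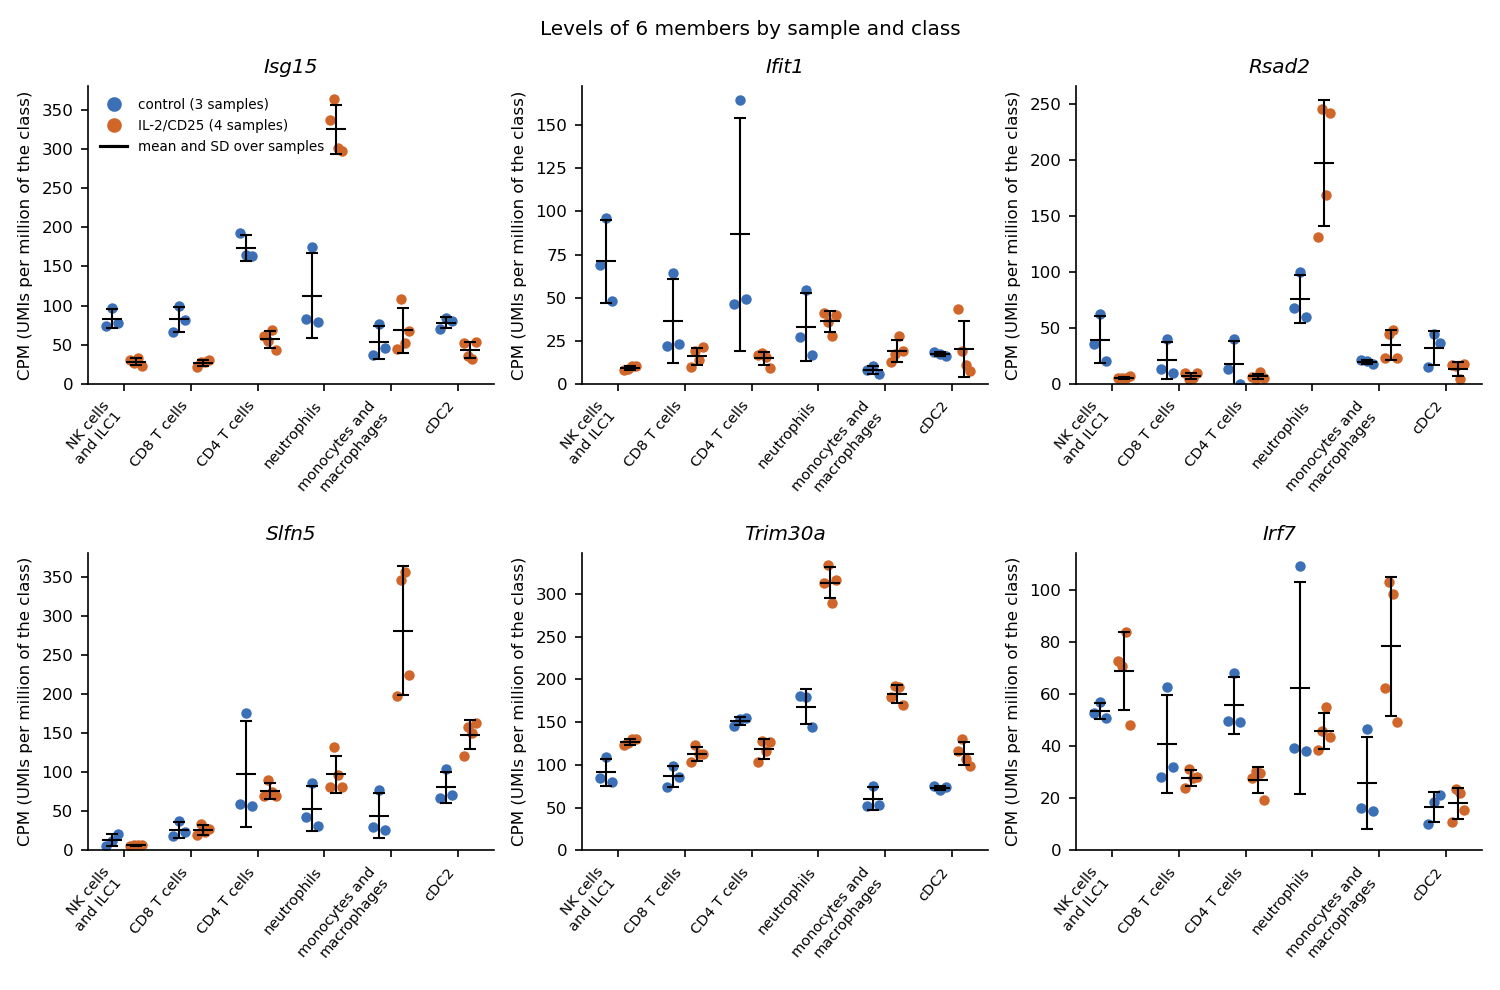
CPM of 6 members in 6 classes, with 1 point per sample (3 controls, 4 treated) and bars for mean and SD. Isg15 is lower in treated NK, CD8 and CD4 cells and cDC2 and higher in treated neutrophils, and Slfn5 in monocytes and macrophages goes from at most 77.2 CPM in the controls to at least 197 CPM in the treated samples.

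In conventional dendritic cells members were called in both directions. The shares called, given below, were near those of all genes or below them, so the calls are not read as a pattern of the members. In cDC1, Isg15 was at 42.8, 92.7 and 52.7 CPM in the controls and at 5.89, 12.4, 19.0 and 23.9 CPM in the treated samples, and fell by 2.13 ± 0.343 (adjusted p = 0.000145). Oasl2, a ubiquitin-like member of the oligoadenylate synthetase family, was at 30.3, 44.4 and 24.6 CPM in the controls and at 3.38 to 14.9 CPM in the treated samples, and fell by 2.13 ± 0.360 (adjusted p = 0.000224). Oasl1 fell from 21.4 ± 5.14 to 4.17 ± 3.28 CPM (2.27 on the log2 scale, adjusted p = 0.000335). Mx1, a GTPase that traps viral nucleocapsids, rose from 25.1 ± 4.11 to 43.8 ± 5.44 CPM (0.73 ± 0.189, adjusted p = 0.00602). Trim30a (161 ± 28.7 and 237 ± 31.6 CPM), Irf9 (58.3 ± 7.53 and 87.2 ± 22.3 CPM) and Parp14 (42.5 ± 1.89 and 61.2 ± 14.1 CPM) rose by 0.50, 0.54 and 0.45, with adjusted p of 0.00894, 0.0198 and 0.0424.

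The abundant Slfn5 (180 ± 26.6 and 221 ± 15.0 CPM) and Bst2 (118 ± 19.8 and 122 ± 37.0 CPM) did not pass the test in cDC1. Of 21 members past the filter, 5 were called higher (23.8%) and 3 lower (14.3%), beside 18.9% and 19.0% of 7974 genes; the medians were -0.07 and 0.02. Without control sample 3 or treated sample 2, 2 were higher and 3 lower, and without control sample 1, 2 and 4. Trim30a was lost without control sample 1 (0.45), control sample 3 (0.40) or treated sample 2 (0.41), Irf9 without control sample 1 or 3 or treated sample 2 or 4 (0.40 to 0.49), and Parp14 without any 1 library but treated sample 4 (0.32 to 0.51). With free RNA subtracted 1 was higher and 3 lower.

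In cDC2, Slfn5 was at 67.1, 104 and 71.1 CPM in the controls and at 121, 158, 151 and 163 CPM in the treated samples, and rose by 0.82 ± 0.150 (adjusted p = 0.000248). Parp14 rose from 57.0 ± 4.42 to 94.0 ± 21.4 CPM (0.67, adjusted p = 0.00192), Trim30a from 73.3 ± 2.30 to 113 ± 13.1 CPM (0.57, adjusted p = 0.000818) and Irf9 from 45.5 ± 4.26 to 61.9 ± 6.34 CPM (0.39, adjusted p = 0.0297). Isg15 was at 70.4, 84.6 and 79.9 CPM in the controls and at 51.8, 35.9, 32.2 and 53.0 CPM in the treated samples, and fell by 0.89 ± 0.163 (adjusted p = 0.000271). Ifi204 (36.1 ± 13.1 and 14.6 ± 8.38 CPM) fell by 1.30 and Rsad2 (32.0 ± 15.2 and 13.4 ± 6.28 CPM) by 1.24, with adjusted p of 0.00283 and 0.0129. Bst2 was at 106 ± 16.8 and 106 ± 14.2 CPM. Of 25 members past the filter, 5 were called higher and 3 lower (12.0%), beside 21.8% and 22.8% of 9139 genes, and the medians were 0.15 and 0.00. A gate with 4 markers and a ratio of 0.5 gave 3 higher and 6 lower, and the fit without control sample 2 gave 7 higher and 2 lower. Rsad2 lost its call without control sample 2 (-0.92), and Irf9 without control sample 1 or 3 or treated sample 3 or 4 (0.30 to 0.39). Irf9 also lost it with DESeq2, without the low-count filter, with the replicate number as a block, with the stricter gate and with free RNA subtracted (0.33 to 0.39).

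In plasmacytoid dendritic cells the transcription factors Stat2 and Irf7 fell, and Irf9 did not pass the test (107 ± 15.1 and 94.5 ± 6.95 CPM, adjusted p = 0.339). Stat2 was at 250, 327 and 204 CPM in the controls and at 157, 156, 145 and 195 CPM in the treated samples, and fell by 0.76 ± 0.152 (adjusted p = 0.00275). Irf7, the factor through which these cells make large amounts of type I interferon, was at 161, 229 and 170 CPM in the controls and at 113, 123, 128 and 110 CPM in the treated samples, and fell by 0.72 ± 0.141 (adjusted p = 0.00218). Slfn5 (121 ± 88.5 and 46.2 ± 15.6 CPM) fell by 1.498, Ifi204 (21.7 ± 10.2 and 7.81 ± 3.52 CPM) by 1.65 and Ifi44, a cytoplasmic antiviral protein (87.3 ± 34.0 and 50.02 ± 12.1 CPM), by 0.87, with adjusted p of 0.00659, 0.0196 and 0.0304. Their groups overlapped. Bst2 was at 2071, 2070 and 2385 CPM in the controls and at 2627, 2788, 2552 and 2677 CPM in the treated samples, all above the controls, and did not pass the test after scaling (0.21 ± 0.096, adjusted p = 0.157). Trim30a was at 392 ± 57.3 and 333 ± 19.96 CPM (adjusted p = 0.0885).

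Of 21 members past the filter in plasmacytoid dendritic cells, 6 were called lower (28.6%) and 0 higher, and 12 had an unadjusted p under 0.05, beside 8.08% lower and 5.82% higher among 9394 genes. DESeq2 called 4 lower and 0 higher, and scaling by library size alone gave 5 lower and 1 higher. The medians were -0.76 for the members and 0.00 for all genes. Without control sample 2, 2 were lower. The plasmacytoid dendritic cells of that sample had a median of 5.255% mitochondrial UMIs, against 1.86 to 2.37% in the other samples. Their median depth was 3465 UMIs, against 5019 to 7768. The part of cell quality in the fall was not tested. Slfn5 was lost without control sample 2 (-0.73), Ifi44 without control sample 2 (-0.51), control sample 3 (-0.90) or treated sample 2 (-0.72), and Ifi204 without control sample 1 or 2 (-1.501 and -1.38).

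Hepatocytes and tumour cells had the largest median change of the 11 classes, between groups that hold different cells. Cells with more keratin than hepatocyte UMIs were 84.4 to 88.8% of the class in the controls, against 7.14 to 58.3% in the treated samples, and the treated samples held 27 to 232 cells. Change of cell make-up and change within cells therefore cannot be told apart here. Treated barcodes of this class were also shallow, with median depths of 1784.5 to 12348.5 UMIs, where control medians ran from 21780.5 to 50470. Median mitochondrial shares were 0.067%, 0.65% and 0.214% for treated samples 2, 3 and 4, below the 1.248 to 1.611% of controls. Treated sample 1, at 3.103%, lay above them. How far barcode quality shaped the changes in this class was not tested. Oasl2 was at 3.61, 6.35 and 3.42 CPM in the controls and at 79.0, 32.4, 123 and 130 CPM in the treated samples (3.85 ± 0.482, adjusted p = 0.000218). Ifih1 was at 2.22 to 4.11 CPM in the controls and at 44.8, 44.5, 38.6 and 22.7 CPM in the treated samples (3.37 ± 0.306, adjusted p = 6.54e-05). Parp14 (2.62 ± 0.537 and 35.1 ± 16.7 CPM) and Slfn5 (2.01 ± 0.742 and 28.4 ± 31.3 CPM) rose by 3.15 and 2.89, with adjusted p of 0.000115 and 0.00623. Oasl1 was at 30.7, 31.1 and 31.2 CPM in the controls and at 11.2, 9.44, 11.3 and 0 CPM in the treated samples, and fell by 2.08 ± 0.275 (adjusted p = 0.000284).

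Bst2 (169 ± 8.91 and 133 ± 58.6 CPM) and Isg20 (31.4 ± 1.15 and 24.1 ± 19.97 CPM) did not pass the test in hepatocytes and tumour cells. Bst2 was called lower when treated sample 1 (-0.62), 2 (-1.28) or 4 (-1.12) was left out, and Isg20 without treated sample 1 (-1.62). Of 19 members past the filter, 14 were called higher (73.7%) and 2 lower (10.5%), beside 35.8% and 30.1% of 11702 genes; the medians were 2.33 and 0.08. Scaling by library size alone raised the change of the median gene by 0.48.

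The 3 transcription factors of the list are compared across classes for their role rather than for how they moved. Irf9, a DNA-binding part of the complex with Stat2, was called higher in neutrophils (48.9 ± 7.40 and 76.7 ± 11.4 CPM), monocytes and macrophages (37.5 ± 10.2 and 79.9 ± 14.3 CPM, 0.95 ± 0.196, adjusted p = 0.00177), both conventional dendritic cell classes and hepatocytes and tumour cells, and lower in none of the 11 classes tested. Stat2 was called higher in B cells, monocytes and macrophages (25.8 ± 4.79 and 55.2 ± 11.3 CPM, 0.92 ± 0.176, adjusted p = 0.00108) and hepatocytes and tumour cells, and lower in plasmacytoid dendritic cells. Irf7 rose in monocytes and macrophages from 16.3, 46.4 and 15.3 CPM in the controls to 62.3, 103, 98.4 and 49.2 CPM in the treated samples (1.38 ± 0.417, adjusted p = 0.0157). In CD4 T cells it was at 49.7, 68.2 and 49.1 CPM in the controls and at 19.5 to 30.5 CPM in the treated samples, and fell by 1.11 ± 0.302 (adjusted p = 0.0271). Irf7 lost this call without control sample 1. In NK cells and ILC1 it was at 53.4 ± 3.11 and 68.9 ± 15.0 CPM and did not pass the test (adjusted p = 0.349).

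Whether classes differed in their response was tested by setting each of 10 classes against NK cells and ILC1 in a fit with sample as a block. The effect in monocytes and macrophages lay above that in NK cells and ILC1 for 22 of 31 members and below it for 0 (26 at an unadjusted p under 0.05), beside 11.0% and 14.1% of 13890 genes. The largest of these differences were in Ifi211 (5.20 ± 0.440 on the log2 scale, adjusted p = 3.21e-11), Ifi44 (4.81) and Ifit3b (4.04), and Slfn5 differed by 2.96 ± 0.427 (adjusted p = 1.90e-06). The largest rest on few counts, since control NK cells and ILC1 held only 34 UMIs of Ifi211, 13 of Ifi44 and 5 of Ifit3b. Ifit3b stayed below the low-count filter in both classes when each was fitted alone. The members' median difference was 1.55 and that of all genes -0.14. Neutrophils differed upward for 10 of 30 members, among them Rsad2 (4.01 ± 0.257, adjusted p = 3.65e-13) and Isg15 (2.86 ± 0.209, adjusted p = 5.00e-12), and downward for Irf7, Zbp1 and Xaf1 (9.53% and 11.3% of 12534 genes). In cDC2, 14 of 29 members lay above NK cells and ILC1 and 0 below (17 at an unadjusted p under 0.05; 14.1% and 6.6% of 11063 genes), and in cDC1, 7 of 29 and 0 (10 unadjusted; 12.2% and 6.24% of 11912 genes). Without control sample 2 these were 8 and 3.

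Few members passed the threshold when the T and B cell classes were set against NK cells and ILC1, which leaves room for large uncalled differences. Usp18 in the other T cells, for example, differed by 1.60 ± 0.564 (edgeR adjusted p = 0.137). In CD8 T cells, Ifit1 and Rsad2 fell less than in NK cells and ILC1, by differences of 1.78 ± 0.277 (adjusted p = 0.000104) and 1.32 ± 0.337 (adjusted p = 0.00819), and Irf7 differed downward (-0.90 ± 0.291, adjusted p = 0.0344). These were the 2 upward and 1 downward calls among 29 members (7.54% and 11.1% of 12433 genes). No downward call was left without control sample 3 or without treated sample 1, 2 or 3. Ifit1 and Rsad2 also fell less in the other T cells, with 2 upward and 0 downward calls among 31 members (7 unadjusted; 2.36% and 0.982% of 13545 genes). In CD4 T cells Irf7 and Trim30a differed downward, with 0 upward and 2 downward calls among 29 members (3.08% and 1.44% of 10901 genes), and 6 had an unadjusted p under 0.05. Leaving out any 1 control, treated sample 1 or treated sample 4 left 1 downward call. B cells gave 2 upward and 1 downward calls among 26 members (4.03% and 5.14% of 10872 genes). Without control sample 2 the upward calls were 1 in the other T cells and 0 in B cells, and without control sample 3 B cells kept 1 upward and 0 downward. Isg15 did not differ past the threshold between NK cells and ILC1 and CD8 T cells (-0.05 ± 0.220), CD4 T cells (-0.05 ± 0.210) or the other T cells (0.12 ± 0.199), with SEs that leave room for differences of either sign.

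Plasmacytoid dendritic cells differed upward from NK cells and ILC1 for 5 of 27 members and downward for 4, Stat2, Irf7, Parp14 and Trim30a (11.6% and 4.51% of 11223 genes). Without control sample 2 these were 5 and 1. Hepatocytes and tumour cells differed upward for 22 of 30 members and downward for 0 (23 unadjusted; 14.0% and 13.4% of 15561 genes).

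Between single cells the members were unevenly spread, and this was measured after each cell had been thinned to 1000 UMIs, since the treated cells of several classes were shallower. In CD8 T cells the 10% of cells with most member UMIs held 56.1 to 59.6% of them in the controls, against 44.7 to 53.1% in the treated samples. Cells with 10 or more member UMIs were 1.83% ± 0.866 of control and 0.234% ± 0.188 of treated CD8 T cells, and the groups did not overlap in either measure. These were 7 of 409 control cells (1.71%, exact 95% interval 0.691 to 3.49%) and 8 of 3476 treated cells (0.230%, 0.0994 to 0.453%). The share of cells with no member UMI overlapped, at 55.3% ± 3.57 and 58.8% ± 3.18. In NK cells and ILC1 the 10% of cells with most held 49.5% ± 2.09 and 43.2% ± 1.76, again without overlap. CD4 T cells differed in another way. Cells with no member UMI were 26.7 to 36.2% in the controls, against 46.8 to 48.0% in the treated samples, while the part held by the 10% of cells with most overlapped (38.8% ± 6.92 and 40.4% ± 2.09). Counting noise around the mean level alone would leave 22.3% ± 6.19 and 40.7% ± 1.27 of cells with none. This share therefore moves with the level and is not a measure of spread alone.

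In monocytes and macrophages the share of cells with no member UMI went from 37.8 to 59.4% in the controls to 20.8 to 37.3% in the treated samples, and cells with 10 or more from 0.634% ± 0.0161 to 1.55% ± 0.620. Both separated the groups by sample, but cells with 10 or more were only 43 of 6789 in the controls and 8 of 485 in the treated samples. The exact 95% intervals of these overlapped (0.459 to 0.852% and 0.715 to 3.22%). For monocytes and macrophages with no member UMI, counting noise around the mean level alone would give 42.0% ± 11.9 in the controls and 17.1% ± 5.64 in the treated samples. Neutrophils with 10 or more member UMIs were 2.02% ± 0.295 in the controls and 4.67% ± 1.60 in the treated samples, without overlap, while the share with none overlapped. Over all samples, 120 of 5903 control neutrophils (2.03%, exact 95% interval 1.69 to 2.43%) and 66 of 1430 treated ones (4.62%, 3.59 to 5.84%) held 10 or more, intervals that cover counting error only. In those cells Rsad2, Isg15, Oasl2 and Ifi204 led the member UMIs of the controls, and Isg15, Rsad2, Oasl2 and Trim30a those of the treated samples. The highest single cells held 70 and 67 member UMIs of 1000.

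Part of the variance between cells was shared by the members, which then are high or low in the same cells. In neutrophils 74.3% ± 1.14 of the variance of the summed count in the controls and 69.8% ± 4.23 in the treated samples was shared between members (covariance, as a part of the total). In monocytes and macrophages it was 58.8% ± 5.97 and 62.8% ± 10.9. In plasmacytoid dendritic cells it was -2.27% ± 15.8 and 27.1% ± 16.7, the only class besides cDC1 (59.5% ± 18.2 and 27.1% ± 17.8) in which the groups did not overlap in this measure. Plasmacytoid dendritic cells without a member UMI were rare, at 6.17% ± 2.72 and 4.23% ± 2.12, and those with 10 or more were 0.813% ± 0.729 and 2.72% ± 0.798, where Bst2 led in both groups.

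**Figure D4:**
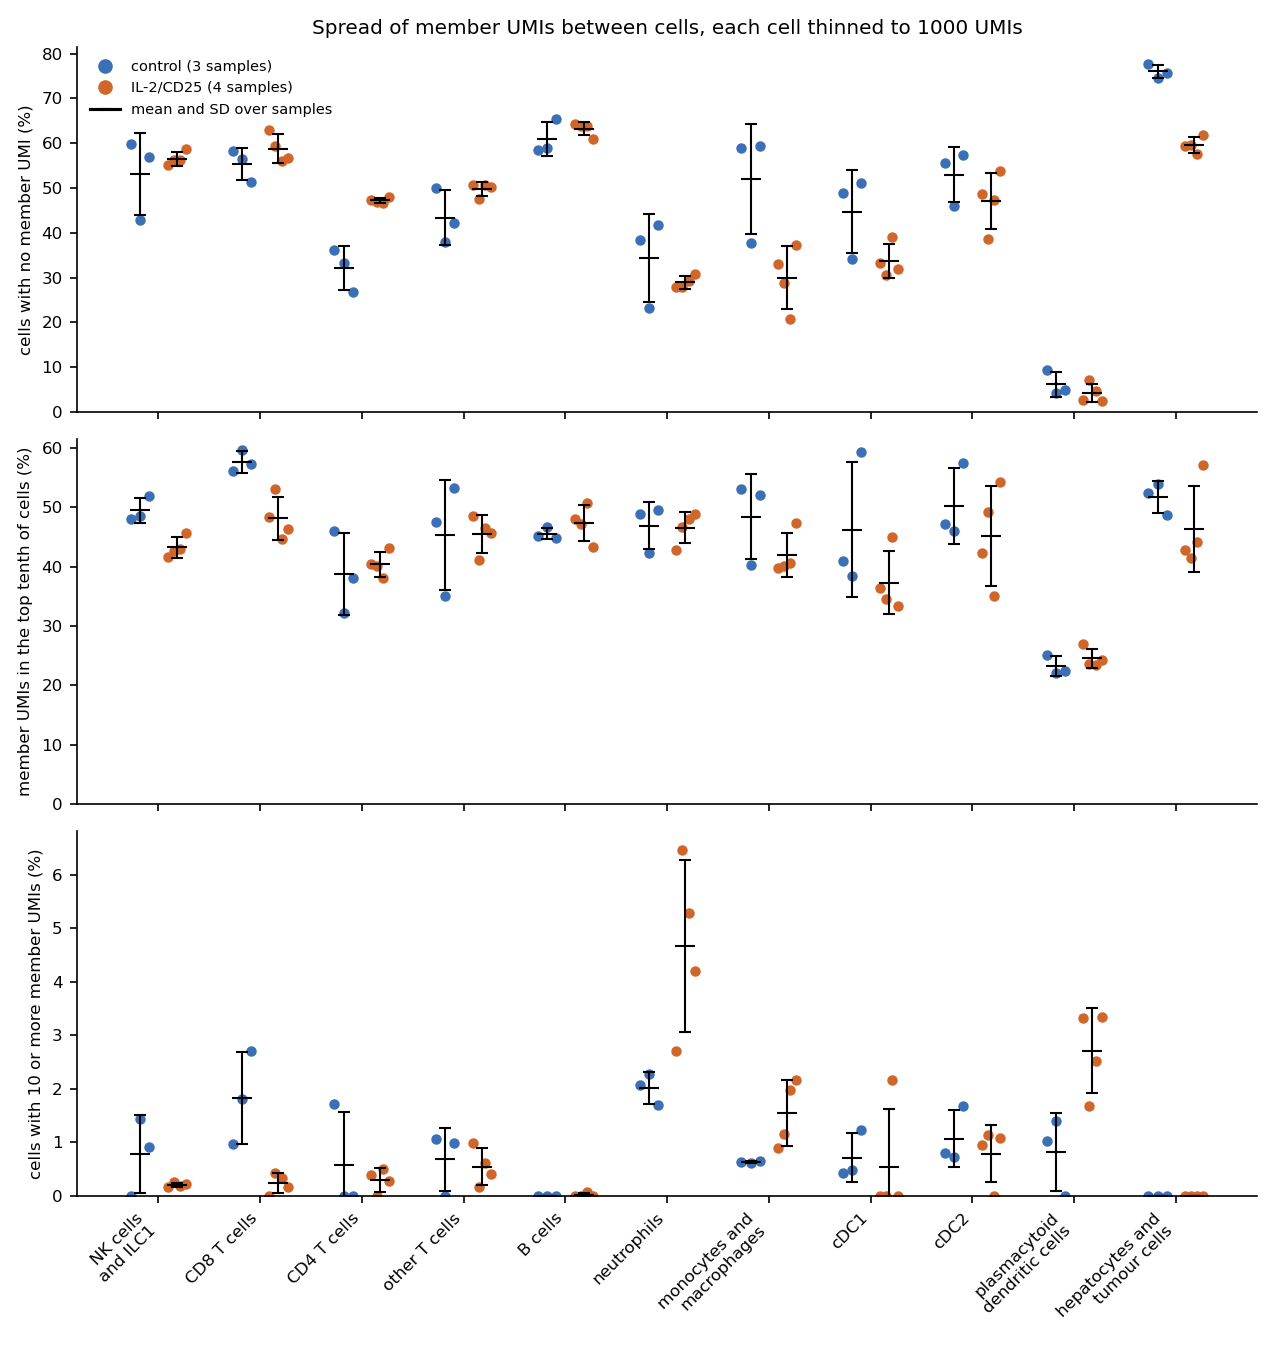
Per sample and class, in cells thinned to 1000 UMIs: cells with no member UMI, member UMIs held by the 10% of cells with most of them, and cells with 10 or more member UMIs, all in percent, with mean and SD bars (3 controls, 4 treated). Treated CD8 T cells lie below the controls in the middle and lower panels, and treated neutrophils, at 2.70 to 6.47%, lie above the controls in the lower panel.

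The ligands were scarce. Ifnb1, the gene of interferon beta, gave 20, 17 and 18 UMIs in the controls and 0 in each treated sample, over 356848553 control and 165756816 treated UMIs. Set against a floor of 3 counts over the treated group, its rate per UMI was at least 8.52-fold lower in the treated samples. Of the 55 control UMIs, 26 lay in 12 monocytes and macrophages, 20 in 9 cells that fitted no gate, 3 in 2 neutrophils, 3 in 1 plasmacytoid dendritic cell, 2 in 2 cDC2 and 1 in 1 mature dendritic cell. Hepatocytes and tumour cells of the controls held none in 167070749 UMIs, which allows up to 0.018 CPM, against 0.322 CPM in monocytes and macrophages. Within monocytes and macrophages the absence in treated samples was not detectable as a difference, since 0 UMIs in 506 cells allow up to 0.741 CPM. Of 20 type I and III interferon genes none passed the filter in any class.

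Ifng, the gene of interferon gamma, gave 251, 508 and 265 UMIs in the controls and 5724, 4060, 5421 and 5216 in the treated samples. In CPM of the whole library this was 3.55 ± 2.74 and 124 ± 19.4, which moves with the number of lymphocytes as well as with their content. Within NK cells and ILC1 it was at 114 ± 68.2 and 236 ± 49.1 CPM (0.79, adjusted p = 0.0356), and within the other T cells at 71.2 ± 26.4 and 157 ± 20.1 CPM (1.07, adjusted p = 0.00267). These changes were 1.67 and 1.44 without control sample 2. Hepatocytes and tumour cells, which do not make it, held 0.299 CPM in the controls, against 5.24 CPM in the treated samples, and the levels in monocytes and macrophages (0.470 and 5.68 CPM) were near that background.

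**Figure D5:**
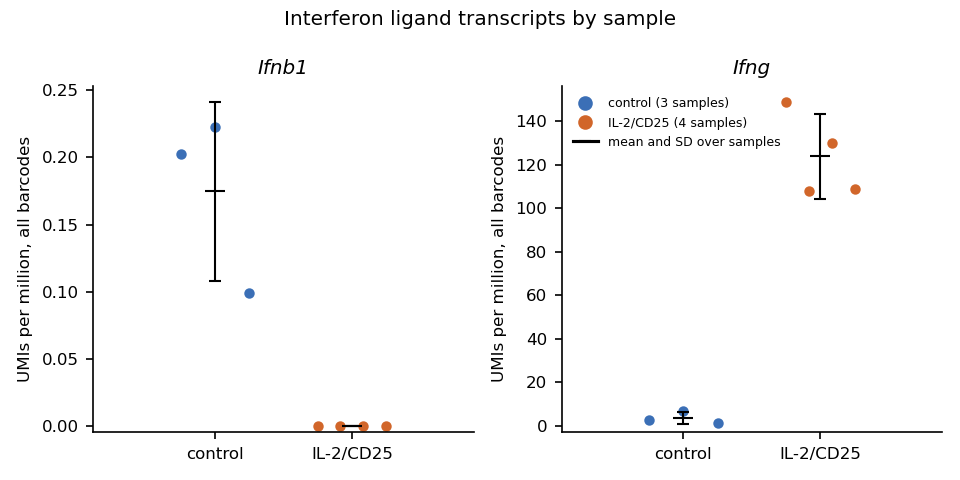
UMIs of Ifnb1 and Ifng over all barcodes of each sample, in CPM, with mean and SD bars (3 controls, 4 treated). Ifnb1 is at 0.099 to 0.222 CPM in the controls and at 0 in all treated samples, and Ifng is at 1.46 to 6.65 and 108 to 149 CPM.

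Receptors and signal transducers, a list of 16 genes of which all passed the filter in every class, had more called higher than lower in 10 of the 11 classes. In monocytes and macrophages 12 rose and 0 fell, with Irf1, which many cytokines induce, from 29.7 ± 2.90 to 127 ± 20.6 CPM (1.94, adjusted p = 6.20e-07). In neutrophils 8 rose and 1 fell. In CD8 T cells 10 rose and 1 fell, with the receptor chain Ifnar1 from 55.6 ± 13.3 to 151 ± 20.6 CPM (1.37, adjusted p = 1.09e-05), and in NK cells and ILC1 7 rose and 1 fell, with the receptor kinase Tyk2 from 59.9 ± 5.65 to 121 ± 9.68 CPM (0.99, adjusted p = 1.74e-05). In plasmacytoid dendritic cells 2 rose and 2 fell, and Ifnar1 was among those that fell (355 ± 67.4 and 272 ± 19.8 CPM, -0.48, adjusted p = 0.0172), a call that was lost without control sample 2 (-0.45). Of all genes tested, 27.0% were higher and 26.7% lower in monocytes and macrophages, 25.6% and 27.1% in neutrophils, 20% and 19.7% in NK cells and ILC1, 27.0% and 28.0% in CD8 T cells, and 5.82% and 8.08% in plasmacytoid dendritic cells.

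Of 29 other interferon-induced genes, 26 passed the filter in monocytes and macrophages, where 16 rose and 1 fell (median change 0.84). In NK cells and ILC1 5 rose and 10 fell of 28 (median 0.01), in CD8 T cells 11 and 5 of 28 (median 0.13), and in CD4 T cells 0 and 5 of 27 (median -0.15), where 4.5% and 5.78% of all genes were called; 5 of 28 is near the share of all genes higher in NK cells and ILC1. Ifitm3, which blocks viral entry and is abundant in myeloid cells, fell in NK cells and ILC1 from 128 ± 13.9 to 12.6 ± 2.61 CPM (-3.45, adjusted p = 2.16e-08), and Sp100, a component of nuclear bodies, rose there from 274 ± 50.3 to 508 ± 19.2 CPM (0.80, adjusted p = 0.000172). Ifitm3 fell by nearly the same amount in CD8 T cells (-3.49), the other T cells (-3.62) and B cells (-3.65), and by less in CD4 T cells (-2.32). Control neutrophils held it at 1355 ± 145 CPM, and the part of RNA carried over from myeloid cells in these falls was not tested. In cDC1, where 18.9% and 19.0% of all genes were called, 10 rose and 3 fell of 22, with Samd9l, an inhibitor of translation, from 24.1 ± 1.57 to 158 ± 37.3 CPM (2.65, adjusted p = 1.42e-08). In plasmacytoid dendritic cells 2 rose and 7 fell of 21. Of 13 nucleic acid sensors and adaptors, 7 rose and 0 fell of 10 past the filter in monocytes and macrophages, with Tlr7, a sensor of single-stranded RNA, from 15.8 ± 2.44 to 67.6 ± 15.2 CPM (1.92, adjusted p = 5.50e-06), and 1 rose and 1 fell of 9 in NK cells and ILC1, where Aim2, a DNA sensor of the inflammasome, fell from 71.4 ± 3.84 to 29.1 ± 3.13 CPM (-1.36, adjusted p = 1.13e-05).

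Genes that lean on interferon gamma were set beside the members, since both kinds of interferon induce overlapping genes. Of 16, 13 passed the filter in monocytes and macrophages, where 11 rose and 0 fell (median change 1.73), and 10 passed in neutrophils, where 9 rose and 1 fell (median 2.19). Gbp2, a guanylate-binding GTPase, rose in neutrophils from 13.1 ± 2.04 to 160 ± 48.2 CPM (3.35, adjusted p = 1.79e-07), and Cxcl9, a chemokine that draws activated T cells, rose in monocytes and macrophages from 2.72 ± 1.59 to 52.5 ± 43.0 CPM (4.10, adjusted p = 0.000187). In CD8 T cells 6 rose and 2 fell of 12 (median 0.57), in CD4 T cells 2 and 1 of 12 (median 0.68), and in NK cells and ILC1 3 and 2 of 13 (median -0.09), near the shares of all genes called there. Cxcl10, a chemokine that type I interferon also induces, fell in each of these 3 classes and in the other T cells, in NK cells and ILC1 from 246 ± 175 to 16.1 ± 2.12 CPM (-4.14, adjusted p = 1.51e-06). It was still called lower without control sample 2, by changes of -3.20 in NK cells and ILC1 and of -1.91, -2.01 and -3.31 in CD8, CD4 and other T cells, where the changes with that sample were -3.03, -3.19 and -4.03. In plasmacytoid dendritic cells 2 rose and 3 fell of 10 (median -0.32).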

How the data were processed

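The deposited matrices hold unnormalised UMI counts per gene and barcode, whole numbers per the file headers, from 10x 3′ v3.1 libraries per the labels' protocols, made with Cell Ranger 7.0.0 per the submitters' processing notes. The sources used here name no genome build and no annotation. The members and lists were chosen with earlier results of these data known, so no test over the list was made.

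Cells with at least 500 UMIs, 200 genes and under 20% mitochondrial UMIs were kept. Each class needed at least 3 of its markers and a next-best lineage score of at most 0.6 of the best, and T cells 2 UMIs of Cd3 genes; cells with mixed lineages stayed ungated, and no doublet caller was run. Libraries shared 14 to 37 barcodes per pair.

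Counts were summed per sample and class (at least 20 cells) and fitted in R 4.3.3 by edgeR 4.0.16 (quasi-likelihood, TMM scaling, filterByExpr), with Benjamini-Hochberg adjustment over all genes of the class; classes were set against NK cells and ILC1 with sample as block. The fitting code was tested on simulated data. Named per class were the 3 members with the highest mean CPM and up to 4 called members per direction, and up to 2 called genes per pathway list and direction, at 20 CPM or more, ordered by change; other names are marked in the text, and not all genes that the rule names are reported here. The floor for 0 counts was 3 counts, and floors and intervals cover counting error only. Alternatives were median-of-ratios scaling, library-size scaling, DESeq2 1.42.0, no low-count filter, a replicate block, stricter cells and gates, free RNA subtracted, cells thinned to 1000 UMIs (500 or 2000 for spread) and each sample left out. Library-size scaling, a gate with 4 markers and a ratio of 0.5, C1q subsets and Foxp3-negative cells were added after the data were seen. Tables and figures were made with pandas 2.3.3, numpy 2.4.6, scipy 1.17.1 and matplotlib 3.10.9 under Python 3.11.15.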

Additional observations from a re-analysis of the deposited data

Results flagged for a closer look

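In 5 of 100 groups of 4 treated samples examined, 1 sample lay far from the other 3, as chance alone does in about 1 of 20 such groups. They were the variance between cells beyond counting noise in plasmacytoid dendritic cells (0.427 in 1 sample, as a part of the squared mean), Slfn5 in cDC1 (243 CPM), Rsad2 in cDC2 (4.02 CPM), Oasl1 in hepatocytes and tumour cells (0 CPM) and Isg20 in neutrophils (109 CPM).

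The treatment effect differed from that in NK cells and ILC1 by the interaction test for 22 members in monocytes and macrophages, 22 in hepatocytes and tumour cells, 14 in cDC2, 13 in neutrophils, 9 in plasmacytoid dendritic cells, 7 in cDC1, 3 in CD8 T cells, 3 in B cells, 2 in CD4 T cells and 2 in the other T cells. All of these share the NK cells and ILC1 as their reference.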

How the results depend on the processing

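The counts of members called changed by at most 1.5 times under median-of-ratios scaling, library-size scaling and DESeq2 in all 11 classes, and no member named in the text changed sign while called; of 1235 alternative values for 78 named members, 1124 kept their side of the threshold, 93 were no longer called and 18 were newly called. Thinning each cell to 1000 UMIs, which leaves fewer counts, gave 7 calls in NK cells and ILC1, 3 in CD8 T cells, 1 among CD4 T cells, 2 in the other T cells, 0 in B cells, 6 in monocytes and macrophages, 0 in cDC1, 1 in cDC2, 3 in plasmacytoid dendritic cells and 0 in hepatocytes and tumour cells. Without a low-count filter CD4 T cells had 9 calls, and 1 member differed between CD4 T cells and NK cells and ILC1. With a gate of 4 markers and a ratio of 0.5 the other T cells had 5 calls. Free RNA subtraction gave 2 calls in B cells and 4 in cDC1, and the C1q-positive monocytes and macrophages had 10; the cause was not tested.

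The change in members' UMIs per 10000 was -4.44 in CD8 T cells, and -1.89 from summed UMIs and -3.02 with free RNA subtracted. In the other T cells it was -3.19, and -4.12 with free RNA subtracted, and in cDC2 1.59, and 0.48 with the stricter gate. In plasmacytoid dendritic cells it was 3.29 and turned to -0.30 from summed UMIs, -2.13 with free RNA subtracted and -4.97 without Bst2. The variance between cells beyond counting noise, treated minus control, turned from 0.29 to -0.97 in CD4 T cells at 500 UMIs, from -1.34 to 0.60 in neutrophils at 2000 UMIs and from -0.11 to 1.26 in hepatocytes and tumour cells at 500 UMIs, so no order is read from it.

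Leaving out each replicate in turn gave 9 to 18 calls in NK cells and ILC1, 11 to 16 in CD8 T cells, 2 to 5 among CD4 T cells, 4 to 8 in the other T cells, 3 to 6 in B cells, 11 to 15 in neutrophils, 13 to 25 in monocytes and macrophages, 5 to 7 in cDC1, 7 to 9 in cDC2, 2 to 7 in plasmacytoid dendritic cells and 15 to 20 in hepatocytes and tumour cells. For the difference from NK cells and ILC1 the ranges were 2 to 4 (CD8 T cells), then 1 to 2 for CD4 T cells, 1 to 3 in the other T cells, 1 to 3 in B cells, 10 to 15 in neutrophils, 18 to 23 in monocytes and macrophages, 3 to 8 in cDC1, 8 to 15 in cDC2, 6 to 11 in plasmacytoid dendritic cells and 16 to 21 in hepatocytes and tumour cells.

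Same-numbered samples did not deviate together and the labels do not pair them. With the replicate number as a block, 17 members were called in NK cells and ILC1, 13 in CD8 T cells, 4 among CD4 T cells, 7 in the other T cells, 5 in B cells, 14 in neutrophils, 23 in monocytes and macrophages, 7 in cDC1, 7 in cDC2, 5 in plasmacytoid dendritic cells and 17 in hepatocytes and tumour cells. Every control correlated best with its own number in monocytes and macrophages only (3 of 3). A gate that allowed no marker of another lineage left too few cells for a fit in every class and is not used. Depth limits the scarce ligands and the classes with under 50 cells in a sample, CD4 T cells, cDC1 and hepatocytes and tumour cells.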
